A study of Mus musculus with 10 samples.

Results

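The cardiac lineage transcription factors are the DNA-binding proteins that set and maintain the identity of heart muscle. The 10 genes considered were Gata4, Gata6, Mef2a, Mef2c, Mef2d, Nkx2-5, Tbx5, Tbx20, Hand2 and Srf, and their probes were taken by gene symbol. Of the 26423 probes in the expression table, 11 carried a symbol of this list. They covered 9 of the 10 genes, with 2 probes each for Mef2c and Srf, while Mef2a was not analysed here. All 11 probes passed the filter on low intensity, as did 19976 probes in all, and all 11 were found on every array.

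These factors act together. GATA4 and GATA6 are zinc-finger proteins, NKX2-5 is a homeodomain protein, TBX5 and TBX20 are T-box proteins and HAND2 is a basic helix-loop-helix protein, and they bind one another on cardiac promoters and enhancers. SRF and the MEF2 proteins belong to the MADS-box family and read AT-rich elements, SRF the CArG box of cytoskeletal and contractile genes. In the adult ventricle several of them, GATA4, MEF2 and SRF above all, are known as end points of the signals that enlarge cardiomyocytes under load, largely through modification and cofactor exchange of protein that is already present, so an mRNA level does not report activity.

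Male C57BL/6J mice, 8 weeks old at operation, underwent transverse aortic banding (TAB), which narrows the aortic arch and loads the left ventricle with pressure, or a sham operation without the band. Left ventricles were collected 3, 5, 7, 14 or 28 days later. There was 1 sample for each operation and day, 5 TAB and 5 sham samples in all, and the number of mice behind a sample is not given in the sources used here. Total RNA was read with Cy5 on a 1-colour mouse oligonucleotide array. For the TAB sample titled day 14, another of its labels gives 15 days. Values below are normalized intensities in array units, listed in the order of the 5 days from 3 to 28, and cannot be set against each other between probes.

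With 1 sample per operation and day, the TAB effect was the average log2 difference between TAB and sham over the 5 days, tested with limma with the day as a block. Its p-values therefore take the spread of the effect between days, and between these samples, as error. The tissue label was checked first. All 10 cardiomyocyte markers were found on all arrays, and so were the 3 atrial cardiomyocyte markers. The median raw intensity of an array was 34 to 55 in TAB and 42 to 57 in sham, and 40.2% to 47.3% of the probes on an array were not found by the spot-reading software. The sham arrays of days 7 and 28 stood apart in the deposited detection p-value, with 38.6% and 38% of probes under 0.05 against 18.8% to 23.5% on the others. The number of arrays limited the precision.

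Most members did not pass the test for a TAB effect. Gata6 was the only member to pass the test, with mRNA 1.40-fold higher in sham than in TAB on average, and it was lower in the banded ventricle on all 5 days, a pattern seen in 17.4% of all probes. Gata4 and Tbx5 were lower in TAB on 4 of 5 days and Tbx20 was higher on 4 of 5 days, but none of these passed after adjustment. The Mef2c, Mef2d, Nkx2-5, Hand2 and Srf probes did not pass either. In limma with Benjamini-Hochberg adjustment over all probes, 1 of 11 member probes was called, against a background of 14.2% of all probes, 6.73% lower in TAB and 7.47% higher. Without adjustment 2 of 11 had p under 0.05, against 33.8% of all probes. The median absolute effect was 0.20 on the log2 scale for the members and 0.30 over all probes. Of the 19976 probes, 12654 were found on all arrays, as were all 11 member probes. The figures for all probes, here and below, include the rest. Run over those 12654 alone, limma called 2058 higher and 2322 lower, and 2 member genes (Gata6 and Tbx20).

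**Figure D1:**
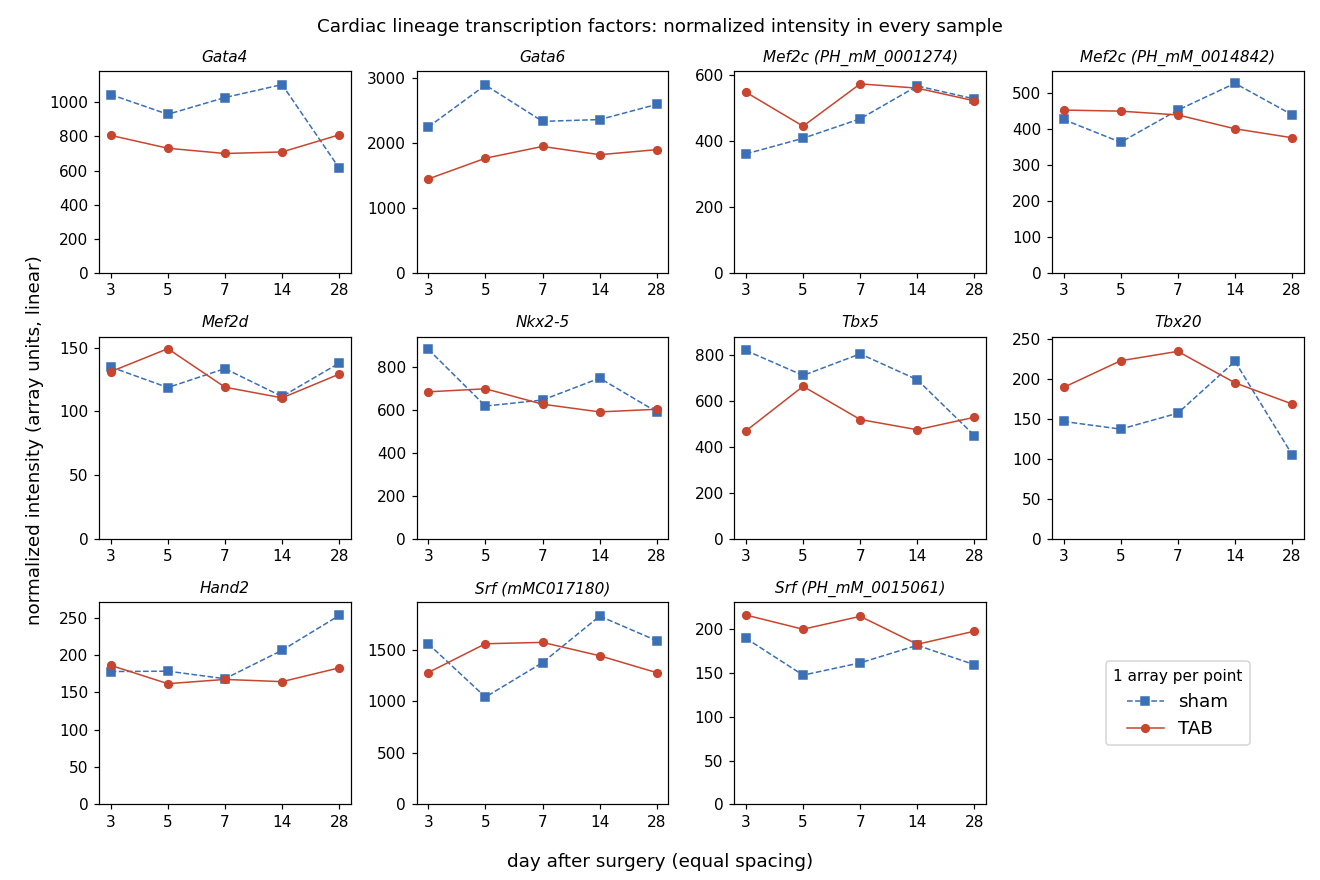
Normalized intensity (linear scale from 0, array units) of each member probe in every sample, by day after surgery; squares and dashed lines are sham, circles and solid lines are TAB, 1 array per point, so no error bars are drawn. The Gata6 panel is the only panel in which all 5 TAB points lie below all 5 sham points.

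Gata6 encodes a GATA factor that overlaps with GATA4 in cardiomyocyte growth and is also made in smooth muscle and endothelium. Its normalized intensity in sham was 2247, 2893, 2334, 2362 and 2596. In TAB it was 1446, 1765, 1947, 1819.9 and 1898. All 5 TAB values were below all 5 sham values, as for 7.59% of all probes, and 8.78% of all probes had all 5 above. No other member probe had separate groups. The lowest TAB value was that of day 3 and the lowest sham value was also that of day 3.

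The log2 ratio of Gata6, TAB over sham, was −0.64, −0.71, −0.26, −0.38 and −0.45 on the successive days. Between any 2 sham samples of different days, Gata6 differed by at most 0.36, so the ratio of day 7 was within the spread seen without banding and the other 4 ratios were outside it, that of day 14 by a narrow margin. With median scaling only, the ratios of days 3, 7 and 14 were −0.37, −0.040 and −0.27. With normalization within each operation, those of days 7, 14 and 28 were −0.11, −0.24 and −0.30. The average effect was −0.49 (SE 0.11, 95% interval −0.77 to −0.21), with a limma adjusted p of 0.0431. The call was close to the threshold. It was lost when any 1 day was left out (limma adjusted p 0.0687 to 0.127, effect −0.54 to −0.43), with median scaling only (−0.34, limma adjusted p 0.117), with quantile normalization within each operation (−0.35, limma adjusted p 0.094) and when probes under an intensity of 1 were kept at 1 (−0.49, limma adjusted p 0.0913). With median scaling only, the TAB and sham values of Gata6 also overlapped, and the Srf probe PH_mM_0015061, higher in TAB, was the member with separate groups in its place.

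Gata4 encodes the GATA factor most studied in hypertrophy, an activator of natriuretic peptide and contractile genes. Its normalized intensity in sham was 1046, 930.2, 1028, 1105 and 614. In TAB it was 806, 731, 700.0, 709 and 809.5. The 5 TAB samples lay close together, between 700.0 and 809.5, and the groups overlapped through the sham sample of day 28, which was below every TAB sample. The average log2 effect was −0.30 (SE 0.17, 95% interval −0.73 to 0.12), with a limma adjusted p of 0.274. With a day left out it ran from −0.48 (without day 28) to −0.22, with a limma adjusted p of 0.0589 to 0.501. Decreases and small increases were both within the interval, so a lower level was not shown.

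Tbx5 encodes a T-box activator that cooperates with GATA4 and NKX2-5 and in the adult keeps atrial and conduction gene programmes. In sham its normalized intensity was 818, 709.5, 803, 691 and 448. In TAB it was 468, 662, 518, 473 and 528. As for Gata4, the sham sample of day 28 lay below the others and was lower than every TAB sample. On average the log2 effect was −0.37 (SE 0.18, 95% interval −0.81 to 0.067), with a limma adjusted p of 0.206. With a day left out it ran from −0.52 (without day 28) to −0.26, with a limma adjusted p of 0.0855 to 0.429.

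The profiles of Gata4 and Tbx5 followed each other over the 10 samples, with Pearson's r of 0.827 and Spearman's rho of 0.818, and r was 0.812 over the 5 daily log2 ratios. These figures describe samples that share arrays, normalization and the operation. Within the 5 sham samples r was 0.925 and within the 5 TAB samples it was −0.182. The r of the ratios and that of the sham samples rest largely on day 28. Only on that day were the ratios of both genes above 0, and both had a sham value far below the others. Day 28 was the lowest sham sample for Gata4, Tbx5, Tbx20 and Nkx2-5, and the highest for Hand2 and Mef2d.

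Tbx20 encodes the other T-box factor of the list, which is needed in adult cardiomyocytes for calcium handling and contractile genes and can repress as well as activate. The sham samples had a normalized intensity of 146, 137, 157, 222 and 105. The TAB samples had 189, 222, 234, 195 and 168. TAB was higher on every day but day 14, and the groups overlapped. Averaged over the days, the log2 effect was 0.43 (SE 0.16, 95% interval 0.035 to 0.82). Its limma adjusted p was 0.122, and 0.0371 before adjustment. When the test was run over the probes found on all arrays, the limma adjusted p was 0.0477. This was the only 1 of 16 alternatives in which Tbx20 passed, and with a day left out the limma adjusted p was 0.064 to 0.287. The deposited detection p-value was under 0.05 on 2 of 10 arrays, and these were the sham arrays of days 7 and 28, where the p-value was low for more probes than elsewhere. The same 2 arrays are meant for Hand2, Mef2d and a Srf probe below.

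Nkx2-5 encodes the homeodomain factor that is among the earliest markers of the cardiac lineage and stays on in adult cardiomyocytes. Normalized intensity in the sham samples was 881, 617, 645, 747 and 589.7. The TAB samples gave 683, 698, 626, 589.9 and 602. The TAB values were contained in the sham range. Over the days the log2 effect of Nkx2-5 averaged −0.11 (SE 0.13, 95% interval −0.42 to 0.20), with a limma adjusted p of 0.589. It was −0.013 with median scaling, −0.027 within each operation and −0.18 to −0.045 with a day left out, lowest without day 5 and closest to 0 without day 3.

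Hand2 encodes the helix-loop-helix factor known for the right ventricle and the sympathetic lineage, and is low in the adult left ventricle. In sham its normalized intensity was 178, 178, 168, 206 and 253. Against this, the TAB samples gave 186, 162, 167, 164 and 183. TAB and sham lay close together on days 3 to 7, and TAB was lower on days 14 and 28, with log2 ratios of −0.33 and −0.47. For Hand2 the average log2 effect was −0.18 (SE 0.12, 95% interval −0.47 to 0.12), with a limma adjusted p of 0.361. Its detection p-value was under 0.05 on 2 of 10 arrays.

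The MEF2 factors bind an AT-rich element in most muscle genes and carry calcium and kinase signals through class II histone deacetylases. Mef2c had 2 probes. For probe PH_mM_0001274, normalized intensity in sham was 361, 408, 467, 567 and 528, and in TAB it was 548, 445, 573, 560.4 and 522. TAB was higher on the early days, with log2 ratios of 0.60, 0.12 and 0.30 on days 3, 5 and 7 and of −0.017 and −0.016 on days 14 and 28; the late minus early difference was −0.36 (SE 0.23, limma adjusted p 0.588). The average log2 effect was 0.20 (SE 0.13, 95% interval −0.12 to 0.52), with a limma adjusted p of 0.342. Without day 3 it was 0.097, and the late minus early difference was −0.23. For probe PH_mM_0014842, sham was 426, 363, 452, 526 and 439 and TAB was 452, 449, 439, 400.1 and 375. Its average log2 effect was −0.054 (SE 0.14, 95% interval −0.38 to 0.27; limma adjusted p 0.817), and the sign turned to 0.038 under median scaling and 0.039 under normalization within each operation. The probes differed in sign on average, and neither passed the test.

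Mef2d encodes the MEF2 protein known for its part in pressure overload of the adult mouse heart. In sham its normalized intensity was 135, 119, 134, 112 and 138. TAB gave 131, 149, 119, 111 and 129, and the ranges nearly coincided. Its average log2 effect was 0.0031 (SE 0.12, 95% interval −0.28 to 0.28), with a limma adjusted p of 0.989, and the detection p-value was under 0.05 on 2 of 10 arrays.

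Srf encodes serum response factor, which with myocardin-type cofactors drives actin and contractile genes. For probe mMC017180, normalized intensity in sham was 1556, 1041, 1375, 1826 and 1587, and in TAB it was 1279, 1558, 1571, 1442 and 1277. The TAB values lay inside the sham range. For this probe the average log2 effect was −0.033 (SE 0.17, 95% interval −0.45 to 0.39; limma adjusted p 0.919), with a sign that turned to 0.091 under median scaling and to 0.075 under normalization within each operation.

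The other Srf probe, PH_mM_0015061, had a detection p-value under 0.05 on 2 of 10 arrays. In sham it read 189.5, 147, 161, 181 and 159, and in TAB 216, 199.8, 215, 183 and 198. TAB was higher on all 5 days, as for 15.6% of all probes, and it was the only member probe with that pattern. The groups overlapped only because the sham value of day 3 exceeded the TAB value of day 14. The average log2 effect was 0.27 (SE 0.11, 95% interval −0.0016 to 0.54), with a limma adjusted p of 0.150. The transcripts that each probe reads are not given in the sources used here.

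**Figure D2:**
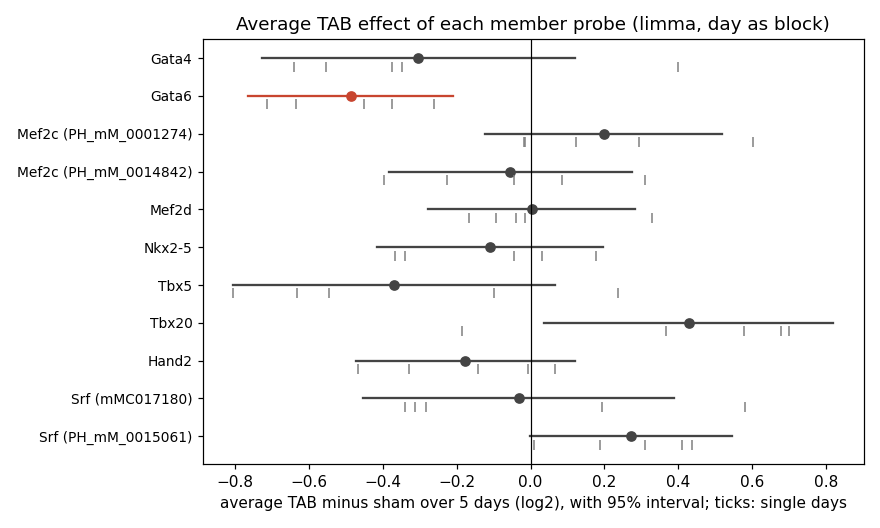
Average TAB minus sham difference on the log2 scale for each member probe (points) with its 95% interval from limma (bars), and the 5 single-day ratios (grey ticks); red marks a limma adjusted p under 0.05. Only the Gata6 point, at −0.49, is red, and the interval of Tbx20 also lies above 0 before adjustment.

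The size of the daily ratios was also small. A probe was called on a day when its log2 ratio lay over 2 SDs of that day's ratios from 0. The rule is the study's, but it was applied here to all 19976 probes and not to 1 probe a gene, after normalization over all 10 arrays. The threshold was 1.75, 1.87, 1.71, 1.46 and 1.38 on the successive days. By this rule 0 of the 55 member ratios were called, against 5.4%, 5.46%, 5.49%, 5.66% and 5.91% of all probes on days 3, 5, 7, 14 and 28. None of the 55 reached a log2 ratio of 1 in either direction, against 18.7%, 20.5%, 17.1%, 12.9% and 11.3% of all probes. These ratios have no replicate check and no test was run on them.

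Under the main normalization, the largest member ratio of each day was that of Tbx5 on day 3 (−0.80), Gata6 on day 5 (−0.71), Tbx5 on day 7 (−0.63), Gata4 on day 14 (−0.64) and Tbx20 on day 28 (0.68). With median scaling, Mef2c PH_mM_0001274 was first on day 3 (0.74) and Tbx20 on days 5 (0.74) and 7 (0.68). Within each operation Tbx20 was first on days 5 (0.77) and 7 (0.65). On day 14, again under the main normalization, 10 of 11 member probes were lower in TAB, against 52.9% of all probes. Among them Mef2c PH_mM_0001274 (−0.017) and Mef2d (−0.014) were close to 0. With median scaling or normalization within each operation, 8 of 11 were lower on that day. On the other days 4 to 7 member probes were lower, against 51.1% to 54.4% of all probes. The median absolute ratio of the members was 0.37, 0.33, 0.26, 0.34 and 0.31 on the successive days, and that of all probes was 0.45, 0.47, 0.43, 0.35 and 0.30.

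The sham samples gave the scale of change without banding. Over all 10 possible pairs of sham samples, the median absolute log2 difference of the member probes ranged from 0.086 to 0.48, with a median of 0.23, and that of all probes from 0.22 to 0.30. A ratio larger than the whole sham range of its own probe was seen for 1, 3, 1, 1 and 1 of 11 member probes on the successive days, against 33.6%, 35.6%, 31.8%, 24.7% and 18.3% of all probes. These were Gata6 on days 3, 5, 14 and 28, the Srf probe PH_mM_0015061 on days 5 and 7, and Mef2d on day 5.

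**Figure D3:**
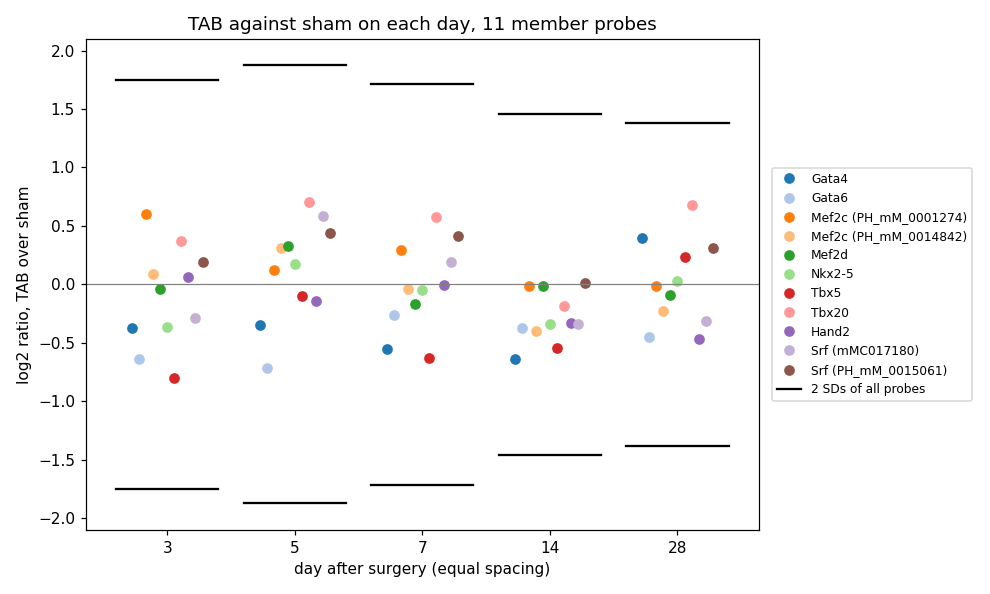
Log2 ratio of TAB over sham on each day for the 11 member probes (points, 1 TAB and 1 sham array each) with 2 SDs of all 19976 probes on that day (black lines). All 55 points lie between the lines, within ±0.80 on day 3 and ±0.68 on day 28.

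Whether the effect changed with time was tested as the difference between the effect of days 14 and 28 and that of days 3 to 7. No member was called, and no probe of the 19976 was (0%; lowest limma adjusted p 0.227), while 10.4% of all probes had p under 0.05 before adjustment. For the members the difference ran from −0.49 for the Srf probe mMC017180 (SE 0.31) to 0.36 for Tbx5 (SE 0.36), and the lowest p before adjustment was 0.102. Gata6 was −0.54 early and −0.41 late, a difference of 0.12 (SE 0.23) that was 0.037 with median scaling and ran from 0.035 (without day 5) to 0.26 (without day 7). Differences of this size could not be told from 0 with 5 days.

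Other factors and cofactors of the same programme were read beside the members. Of 30 such genes 28 were measured, of which 1 rose and 2 fell by limma, with a median log2 effect of −0.18 against −0.047 over all probes. Over all probes 7.47% rose and 6.73% fell. Ankrd1, a nuclear and sarcomeric repressor regulated by NKX2-5 and GATA4, rose, reading 7348 to 12882 in the sham samples and 21086 to 23834 in the TAB samples (2.11-fold, log2 1.08, SE 0.14, limma adjusted p 0.0178). Hopx, an atypical homeodomain protein that binds SRF and dampens its activity, fell, reading 9567 to 11849.9 in sham and 4468 to 6849.6 in TAB (log2 −1.07, SE 0.13, limma adjusted p 0.017). It had 2 kept probes, and each list gene was read by its brightest probe only. Prox1, a homeodomain factor needed for sarcomere structure, fell, reading 153 to 281 in sham and 116 to 151 in TAB (log2 −0.59, SE 0.14, limma adjusted p 0.0429). The Prox1 call was lost with median scaling (limma adjusted p 0.058), within each operation (0.0506), with low probes set to 1 (0.0893) and with any 1 day left out (0.071 to 0.116).

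Apart from Hopx, the named partners that bind a member directly, or are close paralogues of one, did not pass the test. Zfpm2, the GATA4 cofactor FOG2, had a log2 effect of −0.39 (SE 0.099, limma adjusted p 0.0511). It passed with 50 added (limma adjusted p 0.0119), over the probes found on all arrays (0.0161), without the day block (0.0364) and with trend and robust estimation (0.0208). With median scaling the effect was −0.29 (limma adjusted p 0.118) and within each operation also −0.29 (0.0968), and the adjusted p was 0.105 with low probes set to 1 and up to 0.149 with a day left out. Hand1, the paralogue of Hand2, had −0.57 (SE 0.22, limma adjusted p 0.124). Myocd, which encodes the SRF coactivator myocardin, had 0.042 (SE 0.15, limma adjusted p 0.876). Gata5 was found on no array and Mef2b on 1, so neither was well above background.

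Genes known as targets of the members included several with large changes. Of 30 listed targets 28 were measured, and 7 rose and 2 fell by limma, with a median log2 effect of 0.00058. By the same test 7.47% of all probes rose and 6.73% fell. Tested alone, the 12654 probes found on all arrays gave 2058 that rose and 2322 that fell. Nppa, the atrial natriuretic peptide gene, a target of GATA4, NKX2-5 and TBX5, read 6794 to 16119 in sham and 27167 to 35487 in TAB (3.49-fold, log2 1.81, SE 0.19, limma adjusted p 0.0143). Acta1, the skeletal alpha-actin gene driven by SRF, read 3436 to 5633 in sham and 12776 to 18783.5 in TAB (3.39-fold, log2 1.76, SE 0.11, limma adjusted p 0.00548). TAB and sham values did not overlap for either gene.

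Nppb, the B-type natriuretic peptide gene and a GATA4 target, read 3010.0 to 15573 in sham and 14689 to 22130.1 in TAB (3.18-fold, log2 1.67, SE 0.34, limma adjusted p 0.0327), with overlap. Tagln, an SRF target of smooth muscle and myofibroblasts, was not well above background in sham and was found on 4 TAB arrays, at least 4.31-fold higher in TAB (limma adjusted p 0.0354). With 50 added before log2, which is large beside its intensities of 3.62 to 73.0, its log2 effect was 0.73 in place of 2.69. The 5 other called targets, singled out after their values were seen, were Xirp2 (1.43), Xirp1 (0.59) and Des (0.50), which rose, and Kcnd2 (−1.44) and Ppargc1a (−1.36, and −0.85 with 50 added), which fell, as log2 effects. Of these 9 targets and Ankrd1, Hopx and Prox1, Acta1 alone kept a limma adjusted p under 0.05 whichever day was left out (0.0123 to 0.0471). The others reached 0.0676 (Nppa and Xirp2) to 0.149 (Des), and every effect kept its sign. With low probes set to 1, the calls of Nppb (limma adjusted p 0.0706), Tagln (0.0778), Xirp1 (0.0953), Des (0.101), Kcnd2 (0.0516) and Ppargc1a (0.0523) were also lost, and that of Des with the mean of each rank (0.0501). The members and their targets were not tested against each other.

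**Figure D4:**
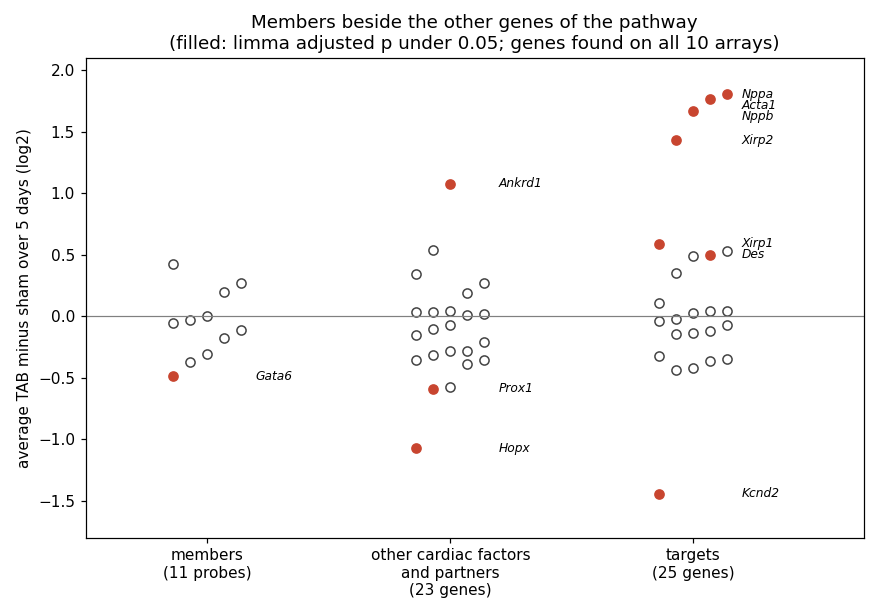
Average TAB minus sham log2 difference of the 11 member probes, of 23 other cardiac factors and partners and of 25 targets (1 point each, genes found on all 10 arrays, position across a column has no meaning); filled red points have a limma adjusted p under 0.05 and are named. The members lie between −0.49 and 0.43, while the targets reach 1.81 for Nppa and −1.44 for Kcnd2.

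Motifs of these factors were looked for in the promoters of the members and of 9 list genes that changed. The stretches below, all from the RefSeq table on build GRCm38.p6 and written 5′ to 3′ on the gene's own strand, show the motif of a member, in capitals, in genes whose values are given above. Windows of 250 bases before to 50 bases after the start were searched on both strands for the CArG box, the MEF2 motif, the GATA motif (written AGATAA or AGATAG or TGATAA or TGATAG), the NKX2-5 motif (written CAAGTG or TAAGTG) and a T-box half-site (written AGGTGT). Of 32851 windows of the same length, 1.63% held a CArG box, 3.19% a MEF2 motif, 29.8% a GATA motif, 21.3% an NKX2-5 motif and 13.7% a T-box half-site. A match is a run of letters, not a bound site. The Srf stretch lies at chr17:46556203-46556262 on the minus strand, with 2 CArG boxes, the element that SRF itself binds. That of Acta1, which rose, lies at chr8:123894816-123894875 on the minus strand, and that of Hopx, which fell, at chr5:77115164-77115223 on the minus strand, with 1 CArG box each. That of Nppb lies at chr4:147985790-147985849 on the plus strand, with 2 GATA motifs, and that of Nppa at chr4:148000592-148000671 on the plus strand, with 1 GATA and 1 NKX2-5 motif. That of Xirp2 lies at chr2:67445902-67445961 on the plus strand, with 1 MEF2 motif.
Srf: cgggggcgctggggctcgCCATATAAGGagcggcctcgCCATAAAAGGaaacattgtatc
Acta1: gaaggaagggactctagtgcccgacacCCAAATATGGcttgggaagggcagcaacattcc
Hopx: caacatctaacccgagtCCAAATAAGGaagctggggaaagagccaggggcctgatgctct
Nppb: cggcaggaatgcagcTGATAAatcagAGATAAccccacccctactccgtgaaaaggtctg
Nppa: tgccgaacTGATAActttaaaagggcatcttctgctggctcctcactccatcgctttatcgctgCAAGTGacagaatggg
Xirp2: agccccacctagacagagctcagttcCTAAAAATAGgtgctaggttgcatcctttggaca

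The CArG boxes of Srf began 82 and 62 bases before the start, and those of Acta1 and Hopx 73 and 83 bases before it. Genes with a CArG box thus included 1 that rose, 1 that fell and Srf, whose probes did not pass the test. The table held windows for 7 of the members, 9 windows in all, and no entry for Gata4, Gata6 and Tbx5. Outside the stretches shown, the Srf window held 1 NKX2-5 motif, that of Nppa 1 T-box half-site, that of Xirp2 1 GATA motif and the second window of Hopx 2 NKX2-5 motifs. Of the other members, a window of Hand2 held 2 GATA motifs and 1 NKX2-5 motif, windows of Mef2c held 1 NKX2-5 motif and 1 T-box half-site, and that of Mef2a held 1 MEF2 motif. The windows of Mef2d, Nkx2-5 and Tbx20 held none of these letters, and neither did those of Kcnd2 and Ppargc1a, which fell. Ankrd1 held 1 GATA motif and Prox1 1 NKX2-5 motif.

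In bulk ventricle, fewer cells of a type and less RNA per cell cannot be told apart. Markers of fibroblasts and leukocytes changed with the operation. None of 10 cardiomyocyte markers was called by limma (median log2 effect −0.14), and their summed normalized intensity was 302165 to 334483 in sham and 287497 to 299238 in TAB. The spot of Myl2 was saturated on 9 of 10 arrays, which bounds its part of the sum, and without it the sum over the other 9 genes was 236666 to 268983 in sham and 222001 to 233738 in TAB. No member spot was saturated. Of 6 measured fibroblast markers 4 rose (sum 30665 to 32751 in sham, 40298 to 55916 in TAB), and of 8 leukocyte markers 6 rose and 1 fell (2006 to 2501 in sham, 2784 to 5947 in TAB). No endothelial marker of 7 was called, with sums of 6641 to 8115 in sham and 6719 to 9621 in TAB. No atrial marker of 3 was called either, with sums of 4390 to 9973 in sham and 2556 to 4760 in TAB. The atrial markers had log2 effects of −0.40 (Myl4), −0.81 (Myl7) and −0.90 (Sln). Of 4 mural markers 1 rose, of 4 epicardial markers 1 rose, neither of 2 erythroid markers was called, and of 14 clock genes 1, Nr1d1, fell. Each measured marker of these cell types was found on at least 1 array. The part of these shifts in the Gata6 result, and in the values of the other members, was not tested.

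The genes whose 10 log2 values were most like those of a member were taken from 12060 probes of other genes found on all arrays, with Pearson's r as a description. For Gata6 they were Cwc27 (0.970) and Dctn6 (0.964), which were themselves lower in TAB by limma estimates of −0.45 and −0.48, with adjusted p of 0.0569 and 0.0519. For Gata4 they were Cacna2d2 (0.958) and Noa1 (0.946), for Tbx5 Ush1g (0.955) and Ffar2 (0.940), and for Tbx20 Ncoa7 (0.963) and Hnrnpul2 (0.955). For the other members r was lower, from 0.846 for Hist3h2a with Srf to 0.931 for Setd6 with Hand2. Among the members, the farthest from 0 was the r of −0.866 between Gata6 and the Srf probe PH_mM_0015061, the pair that lay lower and higher in TAB on all 5 days.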

How the data were processed

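Left-ventricle mRNA of 10 samples was measured with 1-colour Cy5 arrays. The authors deposited the intensity of each probe, read with GenePix from an Agilent scan, after a background whose method is not given in the sources used here, and not scaled between arrays. A detection p-value and a flag were deposited with it, their computation and meaning not stated; a negative flag was read, as GenePix commonly uses it, as a spot not found. Arrays were brought to the same median, the 6447 of 26423 probes that fell under 1 on any array were dropped, quantile normalization used the median at each rank over the 10 arrays, and log2 was taken.

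The average TAB effect and its difference between late and early days were fitted with limma 3.58.1 in R 4.3.3 (lmFit and eBayes, day as a block, Benjamini-Hochberg over 19976 probes, threshold 0.05). Scripts were tested on simulated data. All member probes were named; the brightest probe led where a gene had 2. List genes were named if called and among the 4 largest of a list, or if direct partners; the 2 most alike probes of each member were named by Pearson's r. Members and lists were chosen with earlier results of these data known. Alternatives were median scaling, quantile normalization within an operation or to the mean of ranks, 50 added, low probes set to 1, only probes found on all arrays, other choices of a gene's probe, trend and robust estimation, no block and each day left out. Promoters came from RefSeq (GRCm38.p6); figures used Python 3.11.15 and matplotlib 3.10.9. The miRNA arrays of the study were not used here.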

Additional observations from a re-analysis of the deposited data

Results flagged for a closer look

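The Tbx5 value of the sham sample of day 28, 448 in normalized intensity, lay far below the other 4 sham values, with a gap to its neighbour that was 0.719 of the range of the group on the log2 scale, above Dixon's critical value of 0.71 for 5 samples. In all 22 groups of 5 values were looked at, and chance singles out about 1 in 20. The same sample was the lowest of the sham values for Gata4, where the gap was 0.707 of the range.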

How the results depend on the processing

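Gata6 was lower in TAB under all 16 alternatives, with effects of −0.54 to −0.34 and limma adjusted p from 0.00739 to 0.127; its call was lost under 8 of them, the 3 given in the report and each day left out. The number of member genes called was 0 under median scaling, under normalization within each operation and with low probes set to 1. It was 2 (Gata6 and Tbx20) over the 12654 probes found on all arrays, of which 2058 were called higher and 2322 lower. Probes called lower numbered 884 with median scaling, against 1344; of all called probes 52.6% were higher in TAB, against 66.4% with median scaling and 65.5% with normalization within each operation, where 5 rather than 7 of 11 members lay below 0. With low probes set to 1, 264 probes were called higher and 107 lower; with 50 added, 2365 and 2525; with trend and robust estimation, 2290 and 2436; over probes found on all arrays 2322 were lower. The late minus early difference was called for 9 probes with 50 added, 9 over found probes and 35 with trend and robust estimation, none of them a member. Leaving out a day, which leaves fewer samples, gave 13 to 1455 probes higher, 0 to 1318 lower and 0 to 0 member genes; only without day 28 did the counts stay near those of all days. Members with separate groups numbered 2 within each operation (Gata6 and the Srf probe PH_mM_0015061). With median scaling the Srf probe was the 1 such member. The share of all probes with separate groups is not given for these settings, so the counts have no background. Without the replicate block, pairing by day dropped, 2016 probes were higher and 1859 lower and Gata6 had a limma adjusted p of 0.019; samples of a day deviated together only on day 3 (r of 0.112, others 0.00148 to 0.0466), and only the TAB sample of day 3 was closest to its own day. Signs turned as follows, none of them past the threshold, and the cause was not tested. The Mef2c probe PH_mM_0014842 gave 0.038 under median scaling, 0.039 within each operation and −0.15 to 0.031 with a day left out, turning without day 14; Mef2c gave −0.054 by its probe of largest change. Srf mMC017180 gave 0.091 under median scaling, 0.075 within each operation, 0.12 by the mean of its probes and −0.19 to 0.045 with a day left out, turning without day 3, 14 or 28. Mef2d gave 0.053 under median scaling and within each operation, and ran from −0.079 (without day 5) to 0.046 with a day left out. With a day left out, the late minus early difference ran from −0.20 to 0.050 for Mef2d (turning without day 5), −0.26 to 0.11 for Nkx2-5 (days 5 and 14), −0.74 to 0.13 for Tbx20 (day 14), −0.21 to 0.82 for Gata4 and −0.033 to 0.75 for Tbx5 (both day 28). Daily ratios moved by over 1 SD of the sham values in 8 of 465 cases, 4 of them of Gata6. The brightest probe of each gene was added after seeing the data. Mef2d, Tbx20, Hand2 and the second Srf probe had a detection p-value under 0.05 on 2 arrays, the sham arrays of days 7 and 28.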
